A study of Mus musculus with 20 samples.

Results

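The genes described here are the kinesin motor genes of reprogramming mouse fibroblasts, taken as every row of the expression table whose symbol begins with Kif followed by a digit or the letter c. The rule found 39 genes among the 15757 of the table. By their known roles, 13 were grouped as mitotic kinesins, 15 as transport kinesins and 11 as other kinesins of cilia, microtubule length control and signalling. Related genes with other names, such as the mitotic motor Cenpe and the kinesin adaptor Kifap3, were not members.

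Kinesins are motor proteins that use ATP to walk along microtubules or to take their ends apart. Mitotic kinesins build the spindle, move and align chromosomes and organise the midbody, and their messenger RNAs are known to build up in G2 and M phase and to be low in cells at rest. Transport kinesins carry vesicles, mitochondria, endosomes and ciliary cargo at all stages of the cell cycle, and several of them are best known from neurons. Fibroblasts that are driven towards pluripotency are known to divide faster and to lose contractile and matrix genes as they become epithelial.

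RNA sequencing was performed on OG2 mouse embryonic fibroblasts at passage 2, infected with retroviruses and grown in iCD1 medium. The knockdown groups carried OSKM (Oct4, Sox2, Klf4 and Myc) with an shRNA against Ddx10, an RNA helicase gene of ribosome assembly, and the control groups carried OSKM with an shRNA against luciferase. Both arms were sampled at days 0, 1, 3, 5 and 7 of reprogramming with 2 libraries each, giving 10 groups and 20 libraries, and no label names an uninfected culture, another Ddx10 shRNA or a rescue. The labels give no age or sex of the embryos and do not say whether the 2 libraries of a group came from separate cultures, so p-values measure the spread between these libraries. They also do not say whether day 0 was taken before or after infection and the change of medium. The part of infection and medium in changes from day 0 was not tested.

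Values are normalized read counts as deposited by the authors. They summed to 15.7 M to 21.3 M per library, and the number of reads behind them was not recovered, so no counting interval is given. Ddx10 stood between 255 and 530.0 in the 10 knockdown libraries and between 499.9 and 921 in the 10 controls, below both controls on each day (averages of 381 and 755, limma adjusted p = 5.85e-08). The replicates of control day 1 differed most, with a median absolute log2 difference of 0.252 over all genes against 0.118 to 0.162 in the other 9 groups. Fold changes are differences of log2(value + 1), so those of low genes come out too small, and a gene was called at a limma adjusted p under 0.05 over all 15757 genes. All 39 kinesins passed the filter on low values. Of 8 fibroblast markers none was listed at 0 at day 0, with sums of 439941 and 464597 in the knockdown and 568572 and 547535 in the control. Because the RNA came from whole cultures, fewer cells of a type and less RNA per cell cannot be told apart.

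All 13 mitotic kinesins rose by day 1 of the control course described further on, so promoters are shown for letters that they share. RefSeq promoter sequences (GRCm38.p6, the mm10 assembly, 250 bases before to 50 after the start) were matched by symbol for 31 of the 39 members. They were searched on both strands for TTTGAA (the cell cycle homology region, or CHR, an element known from genes of late cell cycle), for CCAAT (the box bound by NF-Y) and for the E2F-type word TTCCCGCC. TTTGAA was found in 11 of 12 mitotic kinesins, 1 of 10 transport kinesins and 2 of 9 other kinesins, against 17.9% of all 32851 promoters and 14.6% of the 11342 genes of the table with a promoter. Within 30 bases of the start, a window chosen after the positions were seen, it lay in 9 of 12 mitotic, 0 of 10 transport and 1 of 9 other kinesins, against 2.5% of those 11342 genes. CCAAT was found in 8 of 12 mitotic, 3 of 10 transport and 4 of 9 other kinesins (42.7% of the 11342 genes, 37.4% of all promoters), and the 8 mitotic genes with CCAAT also held TTTGAA. TTCCCGCC was found in 0 of 12 mitotic, 0 of 10 transport and 1 of 9 other kinesins (4.38% of the 11342 genes, 2.19% of all promoters). The words TTTGAA and CCAAT overlapped in 0 member promoters, and a match describes letters, not a binding site. Kifc1 and Kifc5b, close copies with much the same promoter letters, count as 2 genes here. In 29 of 35 member promoters the last 30 bases were found in a transcript of the same gene. Regions used for Kif2c, Kif14, Kif4, Kif17, Kif27 and the Kif1a promoter with TTTGAA lay wholly inside the GENCODE vM21 gene, so their starts are uncertain.

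Promoters are printed for 3 mitotic kinesins with both words near the start, and for Kif1c, a transport kinesin that moved the other way. Each line runs 5′ to 3′ on the gene's own strand, and capitals mark TTTGAA or CCAAT in either direction. The regions on GRCm38.p6 are chr19:37376132-37376431 (plus strand) for Kif11, chr7:127042371-127042670 (minus strand) for Kif22, chr9:61946750-61947049 (minus strand) for Kif23 and chr11:70700298-70700597 (plus strand) for Kif1c.
Kif11: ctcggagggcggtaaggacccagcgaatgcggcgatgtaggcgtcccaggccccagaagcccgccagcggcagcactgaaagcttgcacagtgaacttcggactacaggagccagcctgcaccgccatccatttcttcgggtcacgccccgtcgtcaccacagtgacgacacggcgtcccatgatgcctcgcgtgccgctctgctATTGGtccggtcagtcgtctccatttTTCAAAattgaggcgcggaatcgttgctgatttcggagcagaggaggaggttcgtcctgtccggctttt
Kif22: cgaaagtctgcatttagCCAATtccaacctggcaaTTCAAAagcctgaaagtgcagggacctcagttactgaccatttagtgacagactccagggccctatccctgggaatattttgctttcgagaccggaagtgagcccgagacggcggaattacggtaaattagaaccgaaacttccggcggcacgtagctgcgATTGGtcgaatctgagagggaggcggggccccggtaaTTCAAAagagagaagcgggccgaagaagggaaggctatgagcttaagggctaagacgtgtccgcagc
Kif23: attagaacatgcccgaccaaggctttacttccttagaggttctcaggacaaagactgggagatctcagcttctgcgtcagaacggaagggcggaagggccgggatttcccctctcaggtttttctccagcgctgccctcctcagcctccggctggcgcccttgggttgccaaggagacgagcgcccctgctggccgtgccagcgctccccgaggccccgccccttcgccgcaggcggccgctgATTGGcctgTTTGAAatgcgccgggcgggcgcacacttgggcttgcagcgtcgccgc
Kif1c: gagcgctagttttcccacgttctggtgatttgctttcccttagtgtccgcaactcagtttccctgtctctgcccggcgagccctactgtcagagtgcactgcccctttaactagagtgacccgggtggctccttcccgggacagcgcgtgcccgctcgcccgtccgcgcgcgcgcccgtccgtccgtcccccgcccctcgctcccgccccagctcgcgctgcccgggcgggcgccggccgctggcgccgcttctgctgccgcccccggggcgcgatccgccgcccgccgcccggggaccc
Counted from the annotated start as 0, TTTGAA began at base -19 in Kif11, -17 in Kif22 and 2 in Kif23, with CCAAT upstream at -45, -54 and -7. The Kif22 promoter held a further TTTGAA at -215 and a further CCAAT at -233. The printed Kif1c promoter held neither word.

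Levels of different genes were compared only after division by the length of their merged GENCODE vM21 exons, scaled to the same sum in each library. On that scale Kif1c, a carrier of vesicles and integrins, led at day 0 with 254 ± 2.91 in the knockdown and 264 ± 5.41 in the control (SD, n = 2). Kif5b, the widely expressed heavy chain of kinesin-1, followed at 179 ± 18.3 in the knockdown and 142 ± 0.43 in the control, and the 2 genes did not overlap in either arm. Kif20a, which brings the chromosomal passenger complex to the central spindle, was the highest mitotic member with 92.1 ± 4.19 in the knockdown and 86.6 ± 1.24 in the control. Kif18a, which damps the swings of chromosomes at the metaphase plate, was the lowest mitotic member of the day 0 control with 3.44 ± 0.119 in the knockdown and 2.56 ± 0.201 in the control. At day 7 Kif5b stood at 232 ± 11.4 in the knockdown, where Kif1c was within its spread at 228 ± 10.4, and led with 225 ± 0.671 in the control, where Kif1c was at 169 ± 7.18. Kif1a, known for carrying synaptic vesicle precursors along axons, stood at 201 ± 0.499 at day 7, against 35 ± 0.472 at day 0, in the knockdown, and at 181 ± 16.9 at day 7, against 39.5 ± 5.87 at day 0, in the control. Changes between days on this scale differ from those of the deposited values. The deposited control libraries summed to 21.3 M and 20.8 M at day 0 and to 15.7 M each at day 7. Deposited Kif5b stood at 6278 and 6250 in the control at day 0 and at 6895 and 6953 at day 7. Kif6, Kif17, Kif19a, Kif27 and Kif5a were the lowest 5 of the 39 in both arms at day 0, and Kif6 led them with 0.548 ± 0.0209 in the knockdown and 0.656 ± 0.147 in the control.

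Summed over roles on the same scale, transport kinesins held more of the kinesin total than mitotic ones in every library. The mitotic share was 26.8 and 27.8% in the knockdown and 28.8 and 28.7% in the control at day 0. It stood at 37.8 and 38.8% in the knockdown and 42.0 and 44.1% in the control at day 1, and at 27.5 and 27.4% in the knockdown and 35.6 and 35.9% in the control at day 3. At day 5 it was 26.2 and 27.3% in the knockdown and 29.9 and 29.3% in the control. At day 7 it was 31.1 and 30.6% in the knockdown and 35.1 and 34.1% in the control. The knockdown shares lay below both controls on every day. The summed mitotic level itself overlapped between the arms at days 0, 1 and 5 and lay below both controls in the knockdown at day 3 (437 and 458, against 585 and 617 in the control) and day 7 (519 and 513, against 556 and 548 in the control). The summed transport level lay above both controls in the knockdown on every day, as at day 5 with 1033 and 985, against 886 and 831 in the control. Sums of the deposited values, without division by length or scaling, differed at days 0 and 1. There the mitotic sums lay below both controls at day 0 (7481 and 7583, against 7936 and 7689) and day 1 (15183 and 16017, against 16575 and 18858). The transport sums overlapped at day 0 (29966.5 and 29210 in the knockdown, 29739 and 28512 in the control). Changes between days also depended on the scale. The control transport sums after division by length and scaling were 676 and 647 at day 0 and 897 and 934 at day 7. As deposited, those of day 7 were 28332 and 29685, near those of day 0.

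The control arm was compared with its own day 0 to describe the course of the motors during reprogramming. By day 1 all 13 mitotic kinesins had risen, by a median of 1.40 on the log2 scale, while over all genes 28.3% were called higher and the median was 0.0065. Of 15 transport kinesins 5 rose and 3 fell, with a median of 0.24, and of 11 other kinesins 2 rose and 5 fell (26.7% of all genes were called lower). The 13 mitotic rises were called under each of the 8 alternative settings tried. The setting with no filter repeated the main fit, because the filter removed 0 genes. The mitotic median was 1.07 without control replicate 2 of day 1 and 1.62 without replicate 1.

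Kif18a had the largest rise at day 1 among members with a mean of at least 100. It stood at 132 and 147, 560.1 and 802, 376 and 424, 332 and 257, and 438 and 377 in the control libraries of days 0, 1, 3, 5 and 7, with both day 1 values above all later ones (log2 2.26, SE 0.18, limma adjusted p = 5.1e-08). Kif15, a motor that can back up Kif11 in keeping spindle poles apart, stood at 204 and 187, 738 and 977, 737 and 858, 551 and 483, and 771 and 784 (log2 2.12, SE 0.14, limma adjusted p = 6.67e-09 at day 1, and log2 1.99 at day 7). Its day 1 libraries differed widely, and its day 7 values lay between them.

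Kif11 (mm10 chr19:37376403-37421859, plus strand) encodes the tetrameric motor, also called Eg5, that slides spindle poles apart. Its control values were 568 and 612, 1966 and 2540.2, 1866 and 1982, 1549.9 and 1312, and 1705 and 1609 at days 0, 1, 3, 5 and 7, and every later library lay above both of day 0 (log2 1.92, SE 0.11, limma adjusted p = 2.21e-09 at day 1). Kif23 (mm10 chr9:61915905-61946774, minus strand) encodes the motor of centralspindlin, which bundles the midzone for cytokinesis, and stood at 486 and 499.9, 1672 and 1666, 1061 and 1038, 734 and 660.2, and 918 and 802. It rose at day 1 by 1.76 (SE 0.089) and was still higher at day 7 by 0.80.

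Kif2c (mm10 chr4:117159639-117182639, minus strand) encodes a microtubule depolymerase that corrects faulty chromosome attachments. The control libraries held 772 and 775, 1510.4 and 1616, 1046 and 1104, 753 and 716, and 957 and 984 Kif2c at days 0, 1, 3, 5 and 7, with day 1 high and day 5 below day 0. The change was 1.01 at day 1, -0.076 at day 5 (limma adjusted p = 0.369) and 0.33 at day 7 (limma adjusted p = 0.000842). Kif20a (mm10 chr18:34624613-34633277, plus strand) stood at 2105 and 2062, 3673 and 3965, 2171 and 2058, 1531 and 1517, and 2027 and 2158, with day 1 high and day 5 below all others. Its log2 change was 0.87 at day 1, 0.021 at day 3 (not called), -0.45 at day 5 and 0.0055 at day 7 (not called).

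The later days were compared with day 0 and not with day 1. The mitotic median over day 0 was 0.93 at day 3, 0.33 at day 5 and 0.80 at day 7. Over day 0, 9 of 13 were higher at day 3 and none lower, 6 were higher and 3 lower at day 5, and 9 were higher and 1 lower at day 7. Over all genes 34.9% were called higher at day 3, 37.7% at day 5 and 38.6% at day 7, and 31.3% lower at day 3, 32.5% at day 5 and 33.7% at day 7. The 3 falls of day 5 were those of Kif20a (-0.45), Kifc1 (-0.35), the minus-end motor that focuses spindle poles, and Kifc5b (-0.42), a close copy of it. Kifc1 was also the 1 fall at day 7 (-0.40). The control mean was highest at day 1 in 12 of the 13 genes, and in the knockdown in 13 of 13. The exception was Kif20b, a cytokinesis motor, whose control libraries held 281 and 313, 604 and 1155, 472 and 1052, 473 and 384, and 1078 and 978 and differed strongly within days 1 and 3 (log2 1.79, SE 0.34, limma adjusted p = 0.000342 for day 7 against day 0).

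**Figure D1:**
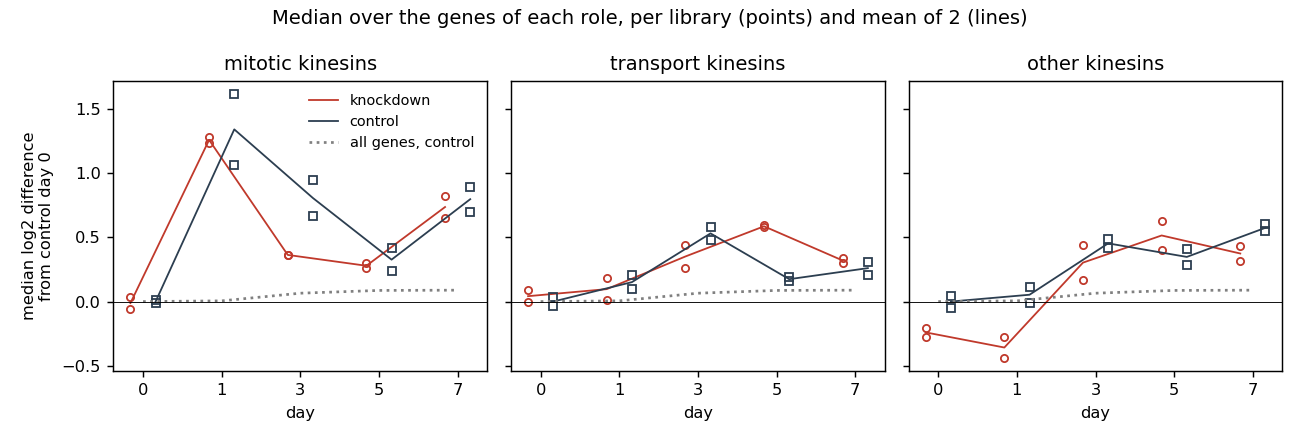
Median log2 difference from the control mean of day 0 over the 13 mitotic, 15 transport and 11 other kinesins, by day (evenly spaced). Each point is 1 library, lines join means of 2, and the dotted line is the median of all genes in the control. The mitotic median is highest at day 1 in both arms, and at day 3 both knockdown libraries lie below both controls.

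Transport kinesins did not move as a group. By day 7 in the control 8 of 15 had risen and 4 had fallen (38.6% and 33.7% of all genes), with a median of 0.25 and a range from -1.39 to 2.77. Quantile scaling put the median of all genes at -0.082, against 0.090 without it. The count moved to 10 rises and 4 falls after quantile scaling, and to 6 and 4 without replicate 2 of day 0 or replicate 1 of day 7. The heavy chains of kinesin-1 went apart, with Kif5a, a neuronal form, at 2.77, Kif5c, another neuronal form, at -0.70, and Kif5b at 0.14, which was not called (limma adjusted p = 0.18). The kinesin-2 genes, whose products drive intraflagellar and other transport, also went apart, with Kif3a at 0.66, Kif3b at 0.25 and Kif3c at -1.39.

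Kif1a had the largest rise among transport kinesins with a mean over 100. It stood at 1672 and 1728, 4591 and 4017, 5895 and 6090.5, 6504 and 6818, and 7072 and 7193 in the knockdown and 2259 and 1829, 4571 and 3360, 4934 and 5607, 6533 and 5816, and 6062 and 6945 in the control at days 0, 1, 3, 5 and 7 (log2 1.67, SE 0.13, limma adjusted p = 1.35e-08 for control day 7 against day 0). All libraries after day 0 lay above those of day 0 in both arms. Kif1c went the other way, at 9644 and 9621, 10618 and 9900.4, 8756 and 8897, 7025 and 7002, and 6078 and 6572 in the knockdown and 10822 and 10510.4, 9446 and 9067, 7372 and 7525, 5246 and 5580, and 4589 and 4893 in the control (log2 -1.17, SE 0.06, limma adjusted p = 6.81e-11). Its control values fell at each step, while the knockdown values stayed near their start at day 1. The small fall of Kif1c by control day 1 (-0.20) turned to 0.095 after quantile scaling (limma adjusted p = 0.222).

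Kif3c stood at 1200.4 and 1269.6, 672 and 624, 596 and 609, 521 and 579.9, and 475 and 515 in the knockdown and 1298 and 1358, 640.2 and 621, 537 and 563, 517 and 457, and 498 and 512 in the control. It had dropped in both arms by day 1 and did not return (log2 -1.39, SE 0.087, limma adjusted p = 6.83e-10). Kif5c stood at 358 and 327, 247 and 215, 135 and 141, 161 and 163, and 217 and 169 in the knockdown and 347 and 268, 201 and 207, 126 and 139.6, 217 and 189, and 202 and 174 in the control, lowest at day 3 in both arms (log2 -0.58, SE 0.16, limma adjusted p = 0.00493 for control day 1 against day 0). Among lower genes, Kif5a stood at 105 and 133 in the control at day 7, against 15.8 and 17.3 at day 0, and Kifc2, a minus-end motor, reached 101 and 99.9 in the control at day 7 (2.35).

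Among the other kinesins, the 5 rises by control day 7 were led by Kif19a, a depolymerase known to set the length of cilia. Kif19a held 4.4 and 7.07, 1.92 and 1.52, 4.52 and 4.67, 56.9 and 39.6, and 74.2 and 46.4 in the knockdown and 5.11 and 1.36, 12 and 3.09, 5.42 and 6.16, 138 and 201, and 259 and 165 in the control at days 0, 1, 3, 5 and 7, so it was low in all libraries up to day 3 (log2 5.77, SE 0.53, limma adjusted p = 7.31e-08). Kif21a, which restrains microtubule growth and carries cargo in axons, stood at 204 and 216, 594 and 627, 748 and 784, 769.9 and 798, and 763 and 745 in the knockdown and 166 and 154, 536 and 627, 684 and 689, 769.8 and 723, and 829 and 824 in the control (log2 2.36, SE 0.089, limma adjusted p = 1.51e-12). It was higher at every later day than at day 0, with most of the rise by day 1. Its relative Kif21b stood at 242 and 273, 259 and 193, 309 and 314, 270.1 and 293, and 299 and 288 in the knockdown and 359.6 and 308, 227 and 205, 371 and 419.7, 305 and 298, and 276 and 306 in the control, with a fall at control day 1 (log2 -0.62, SE 0.14, limma adjusted p = 0.00121) and no call at day 7 (-0.20).

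Kif7, which organises Hedgehog signalling at the tip of the cilium, stood at 451 and 445, 377 and 336, 284 and 272, 247 and 236, and 272 and 262 in the knockdown and 478 and 438, 364 and 329, 345 and 262, 216 and 237, and 202 and 216 in the control (log2 -1.13, SE 0.13, limma adjusted p = 6.82e-07). Its highest libraries were those of day 0 in both arms. Of the rest, Kif24 (centriole capping, 0.78), Kif9 (0.90) and Kif27 (1.06) rose by control day 7, and Kif2a, a depolymerase of spindle poles and neurons (-0.37), and Kif6 (-1.59) fell. Kif27 stood at 15 and 13.7 in the control at day 7, and its rise turned to -0.204 after quantile scaling (limma adjusted p = 0.6). Kif26a (0.57) and Kif26b (0.10), atypical kinesins, were not called at control day 7.

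**Figure D2:**
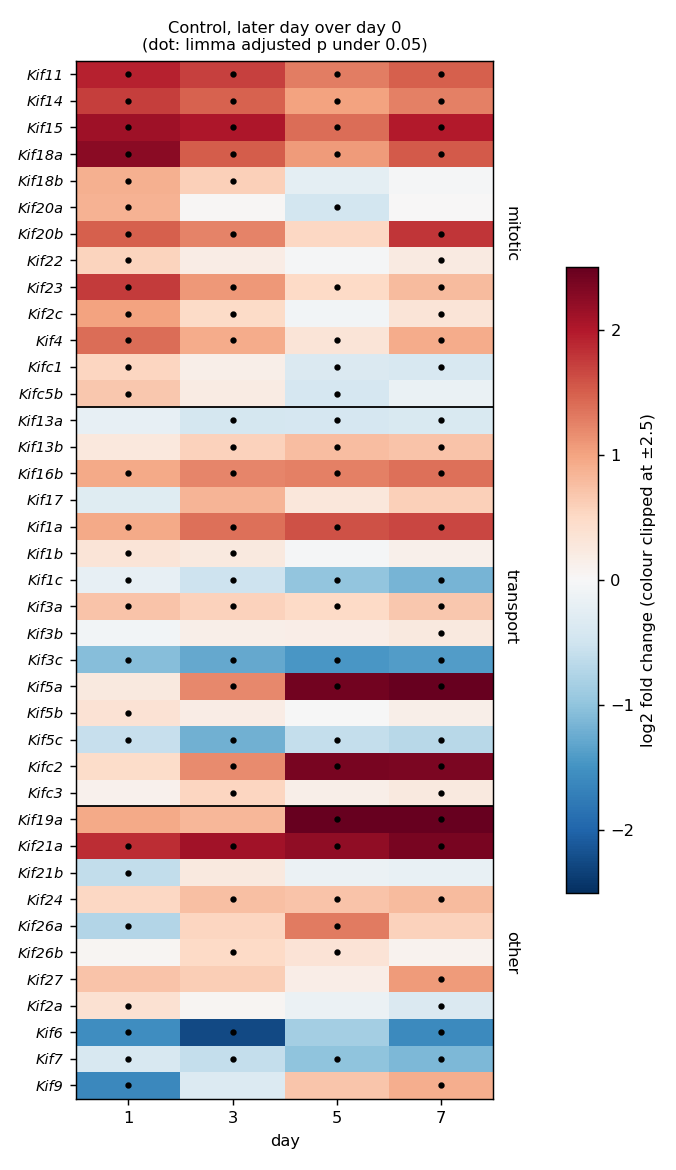
Log2 fold change of each kinesin in the control at days 1, 3, 5 and 7 over day 0, with colour clipped at 2.5 and dots for limma adjusted p under 0.05. All 13 mitotic genes carry a dot and a rise at day 1, while transport and other genes show rises and falls.

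To ask which kinesins differ with the Ddx10 shRNA, the arms were compared day by day. At day 3 mitotic kinesins stood lower in the knockdown. Of 13 mitotic kinesins 6 fell and none rose, with a median of -0.39, against 2.25% of all genes called lower and a median of 0.015. Of 15 transport kinesins 1 rose and none fell, with a median of 0.11 (2.51% of all genes were called higher). Limma called 0 of 11 other kinesins, and 2 of them had an unadjusted p under 0.05, against 3047 of 15757 genes. All 13 mitotic estimates were below 0, and in 12 of them both knockdown libraries lay below both controls, a pattern seen in 24.7% of all genes. These counts hold for the 13 genes grouped as mitotic. Kif2a, a depolymerase of spindle poles that was grouped with the other kinesins, was not lower at day 3. It held 1315 and 1340 in the knockdown and 1235 and 1326 in the control.

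The 6 calls rested in part on single libraries. Of 13 mitotic kinesins, 4 were called without control replicate 1 of day 3, 3 without control replicate 2, 1 without knockdown replicate 1 and 4 without knockdown replicate 2, while the mitotic median was -0.50, -0.39, -0.38 and -0.40. Fitted without the other 16 libraries, the 4 of day 3 gave 7 calls. Kif22, a chromokinesin that pushes chromosome arms away from the poles, was the 1 mitotic gene called in each of these fits.

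Kif22 stood at 534 and 568, 879 and 858, 558 and 538, 589 and 623, and 730.3 and 739.8 in the knockdown and 688 and 732, 1045 and 1029, 812 and 792, 754 and 641, and 807 and 862 in the control at days 0, 1, 3, 5 and 7. The knockdown libraries lay below both controls on every day, and the difference was called at day 3 (log2 -0.55, SE 0.084, limma adjusted p = 0.00321) and at day 0 (log2 -0.36, SE 0.084, limma adjusted p = 0.0285). The day 0 call of Kif22 was lost after quantile scaling (limma adjusted p = 0.0524), with library weights (0.0534), in a fit of the 4 day 0 libraries (0.136) and without control replicate 1 (0.0543), control replicate 2 (0.118) or knockdown replicate 1 (0.214).

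Kif11 stood at 671 and 609, 1764 and 2025, 1188 and 1341, 1304 and 1301, and 1613 and 1602 in the knockdown at days 0, 1, 3, 5 and 7. At day 3 both knockdown values lay below the 2 control values, 1866 and 1982 (log2 -0.61, SE 0.11, limma adjusted p = 0.00896). The call of Kif11 was lost without control replicate 2 of day 3 (limma adjusted p = 0.0816) or knockdown replicate 1 (0.1).

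Kif4, a chromokinesin that also sets the length of the central spindle with Prc1, stood at 458 and 506, 1171 and 1134, 619.7 and 618, 592 and 635, and 755 and 852 in the knockdown and 546 and 423, 1096 and 1476, 907 and 927, 642 and 567, and 987 and 844 in the control. Its arms were apart at day 3 (log2 -0.57, SE 0.14, limma adjusted p = 0.0304) and overlapped on the other days. Without any 1 of the 4 day 3 libraries the limma adjusted p of Kif4 was 0.103 to 0.16.

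Kif2c stood at 695 and 736, 1204 and 1263, 738 and 807, 677 and 672, and 854 and 827 in the knockdown, below both controls on every day, and was called at day 3 (log2 -0.48, SE 0.073, limma adjusted p = 0.00321). Kif20a stood at 1999.8 and 2162, 3081 and 3006, 1588 and 1582, 1330.1 and 1466, and 1749 and 1772 in the knockdown and was called at day 3 (log2 -0.42, SE 0.069, limma adjusted p = 0.0048) and day 7 (log2 -0.25, SE 0.069, limma adjusted p = 0.0429). The arms overlapped for Kif20a at day 0 and were apart on the later days. The day 3 calls were lost without knockdown replicate 1 for Kif2c (limma adjusted p = 0.0549) and Kif20a (0.0514). The day 7 call of Kif20a was lost without any 1 of the 4 day 7 libraries (limma adjusted p = 0.104 to 0.273).

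Kif23 stood at 583 and 538, 1304 and 1454, 793 and 825, 701 and 635, and 888 and 903 in the knockdown, above both controls at day 0 and below both at days 1 and 3. It was called at day 3 (log2 -0.38, SE 0.089, limma adjusted p = 0.0257), and not without any 1 of the 4 day 3 libraries (limma adjusted p = 0.101 to 0.172). The other 7 mitotic kinesins were not called at day 3. Their log2 estimates were -0.47 for Kif18b, -0.39 for Kif15, -0.33 for Kif20b, -0.32 for Kif14, -0.22 for Kif18a, -0.22 for Kifc1 and -0.094 for Kifc5b.

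**Figure D3:**
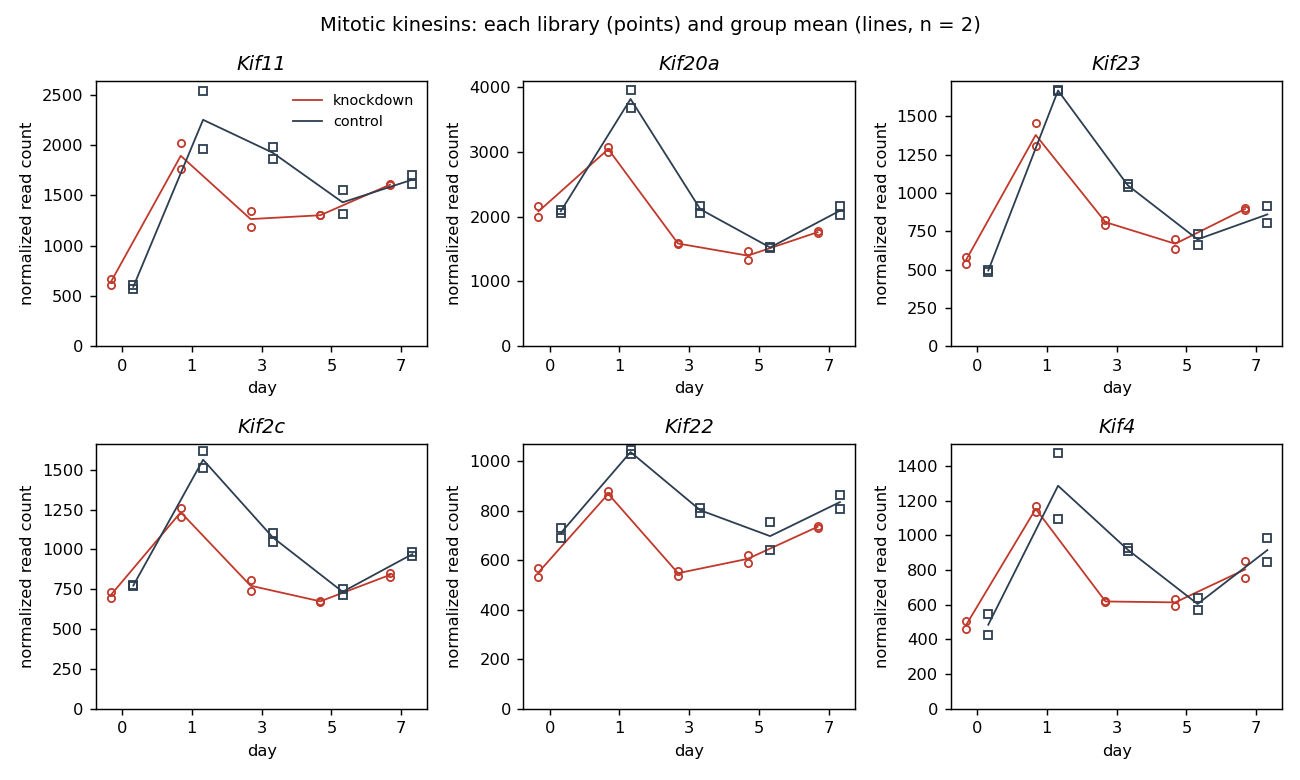
Normalized read counts of 6 mitotic kinesins by day (evenly spaced), with 1 point per library and lines through the mean of 2. Knockdown points (circles) stand left of control points (squares), and at day 3 both circles lie below both squares in each of the 6 genes.

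Fewer mitotic kinesins were called on the other days, and days were compared only by the tests of differences given further on. At day 0, 0 of 13 mitotic kinesins rose and 1 fell (Kif22), against 2.49% and 0.812% of all genes called higher and lower, with a median of -0.0027. At day 1 limma called 0 of 39 kinesins, against 0.146% of all genes. At an unadjusted p under 0.05 by limma there were 9 of 39, 4 of them mitotic, against 2066 of 15757 genes. Of 13 mitotic estimates 11 were below 0, with a median of -0.15. Without control replicate 1 of day 1, Kif20a and Kif2c were called lower (limma adjusted p = 0.022 and 0.0288), and without control replicate 2, Kif19a was (0.0305). At day 5 limma called 0 of 13 mitotic kinesins, against 5.83% of all genes called higher and 2.9% lower, with a median of -0.059. At an unadjusted p under 0.05 by limma there were 2 of 13, against 3498 of 15757 genes. At day 7 Kif20a was the 1 mitotic fall, against 1.52% of all genes called lower and 4.65% higher, and the median was -0.13.

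In the mean of the 5 daily differences (the 5-day mean), 5 of 13 mitotic kinesins fell and none rose (7.46% of all genes called lower), while 5 of 15 transport kinesins rose and none fell (10.3% called higher). The medians were -0.14 for mitotic and 0.10 for transport kinesins, and 0.0011 for all genes. The mitotic falls were those of Kif22 (log2 -0.31, SE 0.038, limma adjusted p = 5.38e-05), Kif2c (log2 -0.25, SE 0.033, limma adjusted p = 9.88e-05), Kif20a (log2 -0.22, SE 0.031, limma adjusted p = 0.00015), Kif18b (-0.22) and Kif11 (-0.18). Kif22, Kif2c and Kif20a kept their calls without any 1 of the 20 libraries. Kif18b, a plus-end motor that works with Kif2c at astral microtubules, and Kif11 lost theirs in several such fits, and Kif11 also without day 1 (limma adjusted p = 0.0593), a setting added after the data were seen. In that setting 8 kinesins were called in place of 13.

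Kif1c, at the levels given above, was the largest transport rise. The knockdown libraries lay below both controls at day 0 and above both at days 1, 3, 5 and 7. The difference was -0.15 at day 0 and 0.15 at day 1, neither called, and 0.24, 0.37 (SE 0.06, limma adjusted p = 0.0011) and 0.42 (limma adjusted p = 0.000664) at days 3, 5 and 7. The day 3 call of Kif1c was lost after quantile scaling (log2 0.15, limma adjusted p = 0.179) and without any 1 of the 4 day 3 libraries (0.125 to 0.162), and those of days 5 and 7 held in each such fit.

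Kifc3, a minus-end motor known from the adherens junctions of epithelial cells, stood at 754 and 829, 868 and 883, 1266 and 1188, 1366 and 1347, and 1370.1 and 1505 in the knockdown and 904 and 849, 938 and 938, 1313 and 1226, 998 and 952, and 1088 and 983 in the control. The knockdown libraries lay below both controls at days 0 and 1 and above both at days 5 (log2 0.48, SE 0.079, limma adjusted p = 0.0014) and 7 (log2 0.47, SE 0.079, limma adjusted p = 0.00211), and both calls held without any 1 of those libraries. Its rise in the 5-day mean (0.13) was lost without knockdown replicate 2 of day 7 (limma adjusted p = 0.0504). Kif13a, which carries cargo to recycling endosomes, stood at 1708 and 1747, 1394 and 1278, 1208 and 1256, 1393 and 1308, and 1299.7 and 1321 in the knockdown and 1635 and 1394, 1241 and 1398, 1135 and 1102, 1142 and 1114, and 1141 and 1176 in the control (log2 0.16, SE 0.037, limma adjusted p = 0.00806 for the 5-day mean). Its knockdown libraries lay above both controls on each day but day 1. Kif3a (0.14) and Kif3b (0.11) were the other 2 transport rises of that mean. Both lost their calls in many fits without 1 library, and Kif3b also with library weights (limma adjusted p = 0.067).

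The remaining transport kinesins, Kif13b, Kif16b, Kif17, Kif1a, Kif1b, Kif3c, Kif5a, Kif5b, Kif5c and Kifc2, were not called in the 5-day mean, and their estimates ran from -0.28 (Kifc2) to 0.12 (Kif5b). Kif17 stayed between 3.12 and 12.1 in all 20 libraries.

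Of the 11 other kinesins 2 rose and 1 fell in the 5-day mean. The fall was that of Kif19a (log2 -0.90, SE 0.24, limma adjusted p = 0.0159), whose knockdown libraries lay below both controls on each day but day 0. Kif19a was called at day 5 (-1.79, limma adjusted p = 0.0475), a call lost with a pseudocount of 0.1 (limma adjusted p = 0.103) and without any 1 of the day 5 libraries (0.127 to 0.245). At day 7 Kif19a had an estimate of -1.80 and was not called (limma adjusted p = 0.0573), but was with a pseudocount of 5 (0.00793), library weights (0.00524), quantile scaling (0.0153) and the 4 day 7 libraries alone (0.0125). In the mean without day 1 its limma adjusted p was 0.0589. The rises were those of Kif26b, which stood at 365 and 397, 635 and 575, 696 and 834, 734 and 690.2, and 571 and 604 in the knockdown and 446 and 469.6, 496 and 455, 642 and 656, 558 and 609, and 464 and 517 in the control (log2 0.17, SE 0.046, limma adjusted p = 0.0171), and of Kif27 (0.43), a low gene whose call was lost in most fits without 1 library. Kif26b was below both controls at day 0 and above both on each later day, and its call was lost without day 1 (limma adjusted p = 0.102). Kif21a was higher in the knockdown at day 0 (log2 0.39, SE 0.089, limma adjusted p = 0.0254), a call lost after quantile scaling (limma adjusted p = 0.063), in a fit of the 4 day 0 libraries (0.211) and without control replicate 2 (0.114) or either knockdown library (0.101 and 0.0963).

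**Figure D4:**
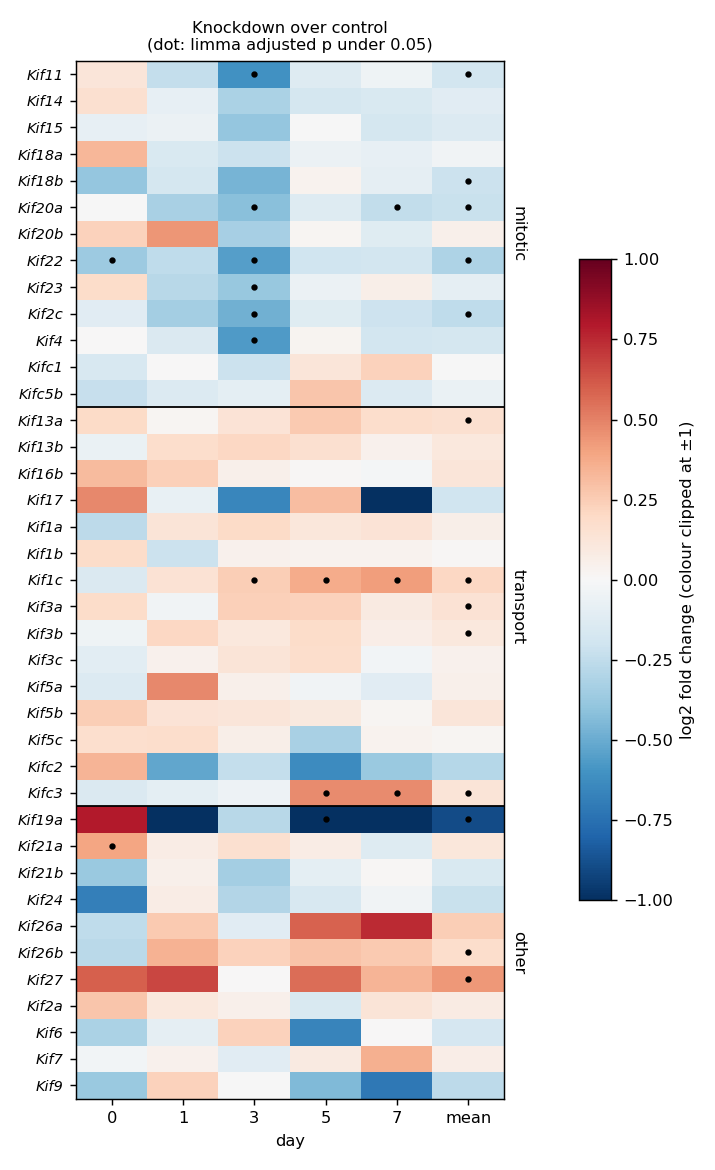
Log2 fold change of each kinesin, knockdown over control, by day and averaged over the days, with colour clipped at 1 and dots for limma adjusted p under 0.05. The dots of day 3 stand on 6 mitotic genes and Kif1c, and those of days 5 and 7 on Kif1c and Kifc3, with Kif19a at day 5 and Kif20a at day 7.

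**Figure D5:**
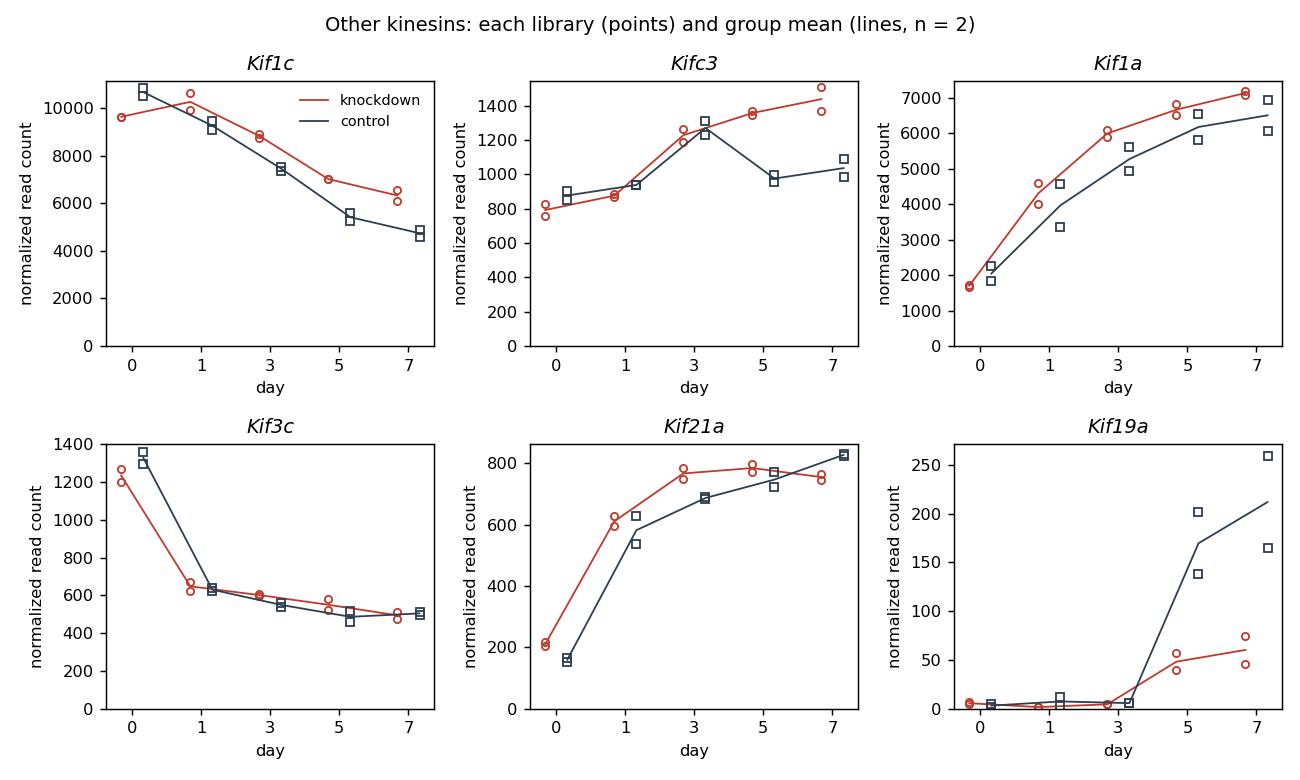
Normalized read counts of Kif1c, Kifc3, Kif1a, Kif3c, Kif21a and Kif19a by day (evenly spaced), with 1 point per library and lines through the mean of 2. Knockdown points (circles) stand left of control points (squares), and Kif1c and Kifc3 show both circles above both squares at days 5 and 7.

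Whether the knockdown difference itself changed between days was tested as the difference of differences. Between day 3 and day 0 it was more negative at day 3 for Kif11 (log2 -0.72, SE 0.16, limma adjusted p = 0.0278), Kif23 (log2 -0.56, SE 0.13, limma adjusted p = 0.0278) and Kif20a (log2 -0.41, SE 0.10, limma adjusted p = 0.0326) and higher for Kif1c (log2 0.39, SE 0.085, limma adjusted p = 0.0247), against 3.73% of all genes called. The 4 calls were between 0 and 3 without 1 of the 8 libraries. Kif1c lost its call after quantile scaling (limma adjusted p = 0.147), and Kif20a in a fit of the 8 libraries alone (0.0606). Between day 7 and day 0 it was higher at day 7 for Kifc3 (log2 0.62, SE 0.11, limma adjusted p = 0.00581), Kif1c (log2 0.56, SE 0.085, limma adjusted p = 0.0019), Kif26b (log2 0.53, SE 0.14, limma adjusted p = 0.0423) and Kifc1 (log2 0.39, SE 0.10, limma adjusted p = 0.0369) and lower for Kif21a (log2 -0.53, SE 0.13, limma adjusted p = 0.0225), with 6.38% of all genes called. Kif1c and Kifc3 kept these calls without any 1 of the 8 libraries, and each of the other 3 lost it without at least 1. In a fit of the 8 libraries alone Kif26b (limma adjusted p = 0.0531) and Kifc1 (0.0885) were not called. Between day 7 and day 3 limma called 0 of 39 kinesins, against 0.387% of all genes. At an unadjusted p under 0.05 by limma there were 8 of 39, against 1817 of 15757 genes. With library weights limma called 3, Kif11 (limma adjusted p = 0.031), Kifc1 (0.0219) and Kifc3 (0.0153). The mitotic median of this difference was 0.27.

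Within the knockdown arm, at day 7 against day 0, 9 of 13 mitotic kinesins rose and 1 fell, 8 of 15 transport kinesins rose and 4 fell, and 6 of 11 other kinesins rose and 2 fell (36.2% of all genes higher, 30.9% lower). The mitotic median was 0.68.

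The proteins that work with the motors were followed as lists. Of 20 spindle and midbody partners, 8 fell and none rose in the knockdown at day 3, with a median of -0.39, against 2.25% of all genes called lower and 2.51% higher. By the rule for named genes they include Aurka, a spindle pole kinase (-0.60 at day 3, -0.28 in the 5-day mean), and Tpx2, its activator (-0.39 and -0.21). The passenger complex members Cdca8 (-0.20) and Birc5 (-0.27) also fell in the 5-day mean. In the control 19 of the 20 rose by day 1, against 28.3% of all genes. Of 16 S phase genes, which mark DNA replication, 8 fell and none rose at day 3, with a median of -0.37, against the same 2.25% and 2.51% of all genes. Whether the mitotic kinesins fell more or less than these genes was not tested.

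Of 23 E2F, MuvB and NF-Y genes, whose products are known to act at promoters of cell cycle genes, 1 rose and 2 fell at day 3, against 2.51% of all genes called higher and 2.25% lower. The falls were Mybl2 (-0.39), a partner of MuvB, and Rbl1 (-0.43), and the rise was Tfdp2 (0.43), a partner of E2F. Of 16 cargo partners in the table, 1 rose and none fell at day 3, namely Fez1, a kinesin-1 adaptor (0.48). Over the control course the adaptor gene Fez2 (-2.66 at day 7) and the kinesin-1 light chain gene Klc1 (-1.29) fell together with Kifap3 (-0.94), while the mitochondrial adaptor gene Trak1 rose (1.31). Dynein and dynactin genes fell in 17 of 19 and rose in 1 by control day 7, with a median of -0.77, against 33.7% of all genes called lower and 38.6% higher. The rise was that of Dync1i1 (3.26), a neuronal intermediate chain. At day 3, 2 of those 19 rose in the knockdown and none fell, against 2.51% of all genes called higher.

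Markers of other cells were read beside these results. Of 8 neuron markers 7 were in the table and none was at 0, and their sums at day 3 were 15252 and 14504 in the knockdown and 12458 and 12539 in the control, against 8104 and 8349 in the knockdown and 7924 and 7380.3 in the control at day 0. At day 5 the neuron sums were 9233 and 9171 in the knockdown and 7839 and 7110 in the control. By day 7 they were 9537 and 9257 in the knockdown and 7726 and 8010 in the control, so the control sums were near those of day 0. Of 6 ciliated cell markers 5 were in the table, with sums of 430 and 379 in the knockdown and 484 and 584 in the control at day 7, and of 50 and 31.9 in the knockdown and 42.1 and 44.4 in the control at day 0, where Dnah9 was listed at 0 in the control. The sums of 6 epithelial markers at day 3 were 2639 and 2699.8 in the knockdown and 4830.3 and 5031 in the control, and those of 8 fibroblast markers were 124415 and 133502 in the knockdown and 106714 and 101597 in the control. At day 3, 2 of the 7 neuron markers were called higher and 2 lower, 3 of the 6 epithelial markers lower and 1 of the 8 fibroblast markers higher. Of the 5 ciliated cell markers 0 were called (1 at an unadjusted p under 0.05 by limma). Over all genes 2.51% were called higher and 2.25% lower, and 3047 of 15757 had an unadjusted p under 0.05. Epithelial sums were 8349 and 8032 in the knockdown and 18443 and 17209.6 in the control at day 5, and 11964 and 11201 in the knockdown and 21110.2 and 19466 in the control at day 7. Of the 6 epithelial markers 5 were called lower at day 5 and 3 at day 7, against 2.9% and 1.52% of all genes. Of the 8 fibroblast markers 3 were called higher on each of these days, against 5.83% and 4.65% of all genes. Of the 5 ciliated cell markers 0 were called at day 5 or day 7, with median differences of -0.29 and -0.41. At an unadjusted p under 0.05 by limma there were 2 and 0 of them, against 3498 and 2894 of 15757 genes. Kif1c was called higher at days 3, 5 and 7, and Kifc3 at days 5 and 7. Of 7 macrophage markers 6 were in the table, with sums of 565 and 464 in the knockdown and 499 and 431 in the control at day 1, against 3493 and 3503 in the knockdown and 2320.4 and 3436 in the control at day 0, and Tyrobp was listed at 0 in the control at day 1. Of 6 pluripotency markers 1 was called higher and none lower at day 7, against 4.65% and 1.52% of all genes. Their sums at day 7 were 5347 and 4998 in the knockdown and 4015 and 3742 in the control. Their median difference was -0.23, with a range from -0.72 to 0.70. The part of these cells in the results for Kif1a, Kif1c, Kif5a, Kif19a and Kifc3 was not tested.

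Some members share transcript sequence or exon positions with other genes. Kifc1 and Kifc5b shared 53.2% of the 31-base words of Kifc1 transcripts, so their counts may have been split between them and both are uncertain. Exons of other genes on the opposite strand overlapped 35.3% of the exon bases of Kif3c, 29.3% of Kif20a, 24.1% of Kifc3, 19.2% of Kif2a, 19.1% of Kif7 and 15.1% of Kif4, and at most 6.37% in the other members. Whether counting used strand is not given in the sources used here.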

How the data were processed

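The mRNA libraries of 20 samples were read from both ends, per the labels' protocols. The authors deposited 1 table of 15757 genes, whose signal unit is a normalized read count. The submitters' processing notes name mm10, DESeq2 1.22.0, RSEM 1.2.22, Trim Galore 0.4.4 and STAR 2.5.2a without role or order, and the normalization is not given in the sources used here. At best 45.4 to 63.4% of low values per library lay within 0.1 of whole multiples of 1 step, so whole reads were not recovered.

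With 1 added, values were taken to log2. A filter of at least 1 in at least 2 libraries removed 0 genes. All 20 libraries entered 1 limma fit (limma 3.58.1, R 4.3.3, 10 group means, robust and trend options, residual degrees of freedom 10), adjusted by Benjamini and Hochberg over all genes and tested on simulated data. Members, role lists and tests were chosen with earlier results of these data known. Genes given in every library were Kif11, Kif20a, Kif23, Kif2c and, for control days 1 and 7 and for the knockdown at day 3 and in the mean, the 3 largest called rises and falls with a mean of at least 100. Others were named where they stood apart, after their values were seen. Lengths and positions came from GENCODE vM21 (15665 genes matched, 92 not) and promoters from RefSeq. The alternatives were quantile scaling, pseudocounts of 0.1 and 5, no filter, a mean of at least 50, the replicate block, library weights, the compared libraries alone and each library left out, where a lone library was assumed to vary like the other groups.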

Additional observations from a re-analysis of the deposited data

Results flagged for a closer look

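For 9 kinesin results the knockdown difference was called as differing between 2 days, by a test of the difference itself. Over all genes 3.73% were called between day 3 and day 0, and 6.38% between day 7 and day 0. Several of the kinesin calls were lost in alternative fits, as given above. Between day 3 and day 0 these were Kif11 (-0.72), Kif23 (-0.56), Kif20a (-0.41) and Kif1c (0.39). Between day 7 and day 0 they were Kifc3 (0.62), Kif1c (0.56), Kif26b (0.53), Kifc1 (0.39) and Kif21a (-0.53). Values are log2, later day minus day 0, with the limma adjusted p in the results above. Groups of 2 libraries are too small to single out a library that stands apart from its group.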

How the results depend on the processing

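Over the alternatives, 7258 comparisons of single kinesins kept their direction and side of the threshold, 244 lost a call, 78 gained one and 8 changed direction. Called kinesins numbered 2 at day 0, and 0 after quantile scaling, 1 with library weights, 0 with the 4 libraries alone and 0 to 1 without 1 library. At day 1 there were 0 called, and 0 to 2 without 1 library. At day 3 there were 7, and 1 to 4 without 1 library. At day 5 there were 3, and 5 after quantile scaling, 5 with library weights and 2 to 4 without 1 library. At day 7 there were 3, and 7 with library weights, 5 with the compared libraries alone and 2 without any 1 library. For the mean of all days there were 13, 8 without day 1 (chosen after seeing the data) and 8 to 16 without 1 library. In the control over day 0 there were 28 (24 to 27) at day 1, 26 (22 to 25) at day 3, 25 (23 to 24) at day 5 and 30 (26 to 27) at day 7, and 30 (28 to 29) in the knockdown at day 7. For the change between day 3 and day 0 there were 4 (0 to 3), between day 7 and day 0 5, 3 with the compared libraries alone and 2 to 4 without 1, and between day 7 and day 3 0, with 1 after quantile scaling, 1 at a mean of at least 50, 3 with library weights, 1 with the compared libraries alone and 0 without 1 library. After quantile scaling, called kinesins were 0 higher and 6 lower at day 3, 4 and 1 at day 5, and 2 and 2 at day 7, against 1 and 6, 2 and 1, and 2 and 1 without it. Quantile scaling turned the sign of Kif1c at control day 1 (0.095), Kif17 (-1.03), Kif27 (-1.16) and Kif5b (0.40) at control day 5, Kif27 at control day 7 (-0.204), and Kif1b (0.28), Kif27 (-0.25) and Kif5b (0.36) at knockdown day 7. The cause was not tested. Shares of all genes called in each comparison are given in the results above. At day 5 the kinesins called were 2 higher and 1 lower, against 5.83% and 2.9% of all genes. Of the 546 comparisons of single kinesins in the main fit 176 were called, so many of those that kept their side were never called. The fit with no filter repeated the main fit, because the filter removed 0 genes, and could not differ from it.

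Same-numbered libraries of the arms deviated together with r of -0.141, 0.178, 0.0157, -0.0166 and 0.0414 at days 0, 1, 3, 5 and 7, so they share a number and no pairing was assumed. With the replicate block the number of called kinesins in the mean of all days was 11 and that of day 7 was 2, and the limma adjusted p was 0.0516 for Kif20a at day 7, 0.0565 for Kif3b and 0.0601 for Kif27 in the mean, and 0.0512 for Kifc1 between day 7 and day 0. Unknown depth limits the lowest genes, Kif17, Kif19a, Kif27 and Kif6.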
